A study of Homo sapiens with 12 samples.

Results

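Platelet-rich plasma (PRP) was compared with plain plasma to ask what platelets add to the response of tumour cells that already receive plasma. The comparison used 8 of the study's 12 RNA sequencing libraries, taken by their treatment labels: 4 from cells given 10% human plasma for 48 h and 4 from cells given 10% PRP for 48 h. The other 4 libraries came from untreated control cells, with no culture time given, and their levels are quoted beside the treated ones. All 12 libraries were made from PE/CA-PJ41, an established human line of oral squamous cell carcinoma, so tumour stroma, vessels and immune cells were not part of the cultures. PRP holds plasma as well as platelets, so both treated groups received plasma proteins and lipids. Nothing in the labels says that replicates were separate cultures or that the blood came from several donors, so a p-value reflects how much these libraries vary and perhaps only technical spread.

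Platelets store growth factors such as PDGF, TGF-beta, EGF and VEGF in their granules, together with chemokines, adhesive proteins and lipid mediators, and release them on activation. Receptors on epithelial cells can pass these signals to the SMAD, ERK and YAP pathways, which control matrix proteases, adhesion and growth. Plasma brings lipoproteins, and cells that take up their cholesterol keep the transcription factor SREBP2 inactive and transcribe fewer of the enzymes that make cholesterol, while a shortage of sterol has the opposite effect.

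Levels are given as TPM, the share of all transcripts that a gene holds after correction for transcript length. Differences are PRP minus plasma on the scale log2(TPM + 1), which understates changes of genes near 1 TPM. They were tested with limma over 12304 genes that reached 1 TPM in at least 4 of the 8 libraries, and a gene was called where the Benjamini-Hochberg adjusted p was under 0.05. The 8 libraries held between 36258955 and 41976136 estimated reads. Mitochondrially encoded transcripts took between 0.191% and 0.769% of reads, and the libraries numbered 1 had the lowest share in both groups. Several genes also ran with the replicate numbers. EGFR stood at 136 and 105 TPM in plasma libraries 1 and 2 and at 87.0 and 89.8 in libraries 3 and 4, with 138, 114, 89.4 and 86.1 TPM in the PRP libraries of the same numbers. The sources used here do not say what the numbers stand for.

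The cells carried the markers of their labelled type. All 17 squamous markers listed were tested, and their summed level was 18695 ± 606 TPM (SD, n = 4) with plasma and 18844 ± 845 TPM with PRP. Of the listed markers 8 of 22 for platelets, 9 of 15 for red cells and 4 of 20 for leukocytes had no read in any of the 8 libraries. PF4, SELP, TREML1 and HBB had 0 reads in all 8 libraries, where a floor of 3 reads allows up to 0.0827 CPM (reads per total, scaled like TPM but without length) in the smallest library, a limit for counting error only. PPBP, the most abundant platelet chemokine transcript, had 3 reads in PRP library 3 and 0 in the others. GP1BB had 9.06, 18.3, 0 and 7.40 reads in the PRP libraries and 13.7 in 1 plasma library. The summed platelet list was 960 ± 65.0 TPM with plasma (882 to 1032) and 907 ± 72.4 with PRP (808 to 975.2), with 948 ± 89.1 in untreated cells. CLU and SPARC made up most of it, and untreated cells had them too. GNG11, NRGN and MPIG6B were also detected, with 559 to 695, 133 to 187 and 45.6 to 69.3 reads. The erythroid sum was 1.55 ± 0.449 and 2.33 ± 0.877 TPM and the leukocyte sum 117 ± 15.4 and 111 ± 6.40 TPM, with 2.19 and 60.9 TPM in untreated cells. CD68, at 65.3 to 82.9 TPM, made up most of the leukocyte sum. An exact two-sided permutation test over 70 assignments gave p = 0.371, 0.171 and 0.4 for these 3 sums, each 0.4 after adjustment. The smallest p possible was 0.0286, so 1 sum alone could not have passed 0.05 after adjustment, and the test says little about their stability.

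PRP and plasma left nearly the same messenger RNA profile. Called genes numbered 9 of 12304 (0.0731%), and all 9 were higher with PRP. An unadjusted p under 0.05 was reached by 990 genes, above the share of 0.05 that such a test gives where nothing differs. Over all genes the median difference was -0.0036, the median size was 0.05, and 48.1% of the differences were positive. The 95% interval lay within 1.5-fold in either direction for 11915 genes (96.8%) and within 2-fold for 12239 (99.5%). Only 5 genes differed by 2-fold or more on this scale. All 4 PRP values lay above all 4 plasma values for 328 genes (2.67%) and below them for 318 (2.58%).

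The called genes were CYP51A1, HMGCS1, ACAT2 and IDI1 of cholesterol synthesis, the matrix protease MMP9, S100A2, ECM1, CYP26B1 and the transcript ENSG00000283977. A fit of the 8 libraries alone, which leaves the spread of the untreated libraries out of the error, called 16 genes (0.13%), 11 higher and 5 lower with PRP, with 1099 at an unadjusted p under 0.05. The lower genes were MMP10, MMP12, ABCG1, ALDH3A1 and HRURF, and BOLA3, SPRR1B, MT1M and LY6D joined the higher ones. The fits shared 7 called genes and named 18 between them. Leaving out 1 library at a time gave 4 to 14 calls in the fit of 12, with the fewest without plasma replicate 4 or PRP replicate 2 and the most without control replicate 1. The fit of 8 gave 0 calls without PRP replicate 3, 3 without PRP replicate 2, 8 without PRP replicate 1 and 20 without PRP replicate 4.

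**Figure D1:**
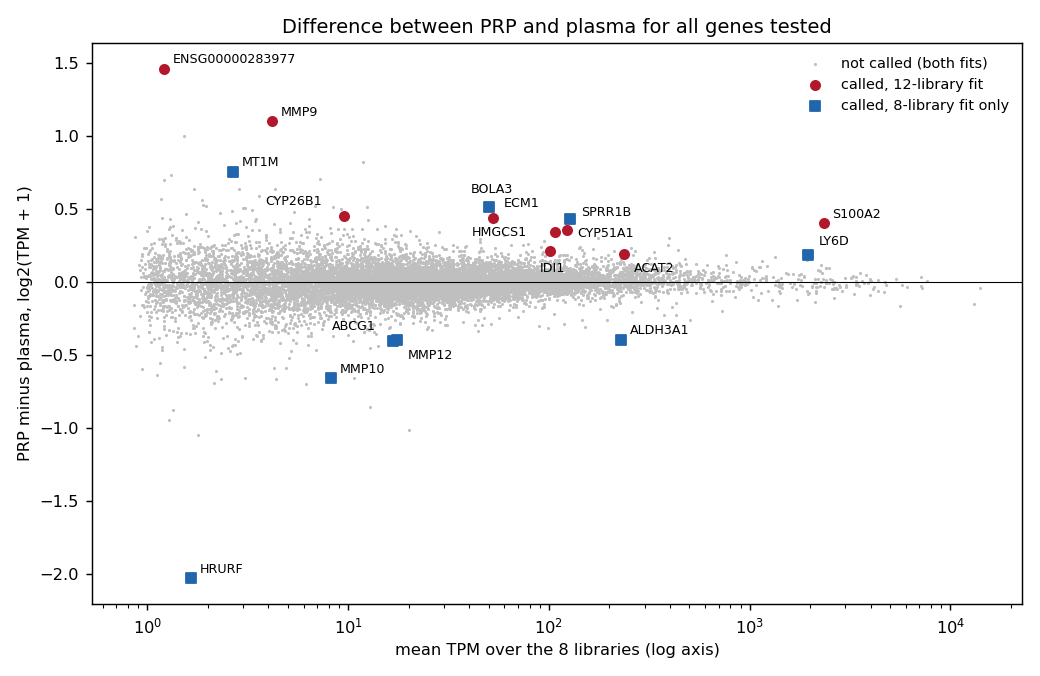
Mean TPM over the 8 plasma and PRP libraries (log axis) against the PRP minus plasma difference in log2(TPM + 1) for the 12304 genes tested. Red circles mark the 9 genes called in the fit of 12 libraries and blue squares those called only in the fit of 8. Most called genes above 20 TPM differed by less than 0.5, and the widest, of ENSG00000283977 and HRURF, belonged to transcripts with under 40 reads a library.

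**Figure D2:**
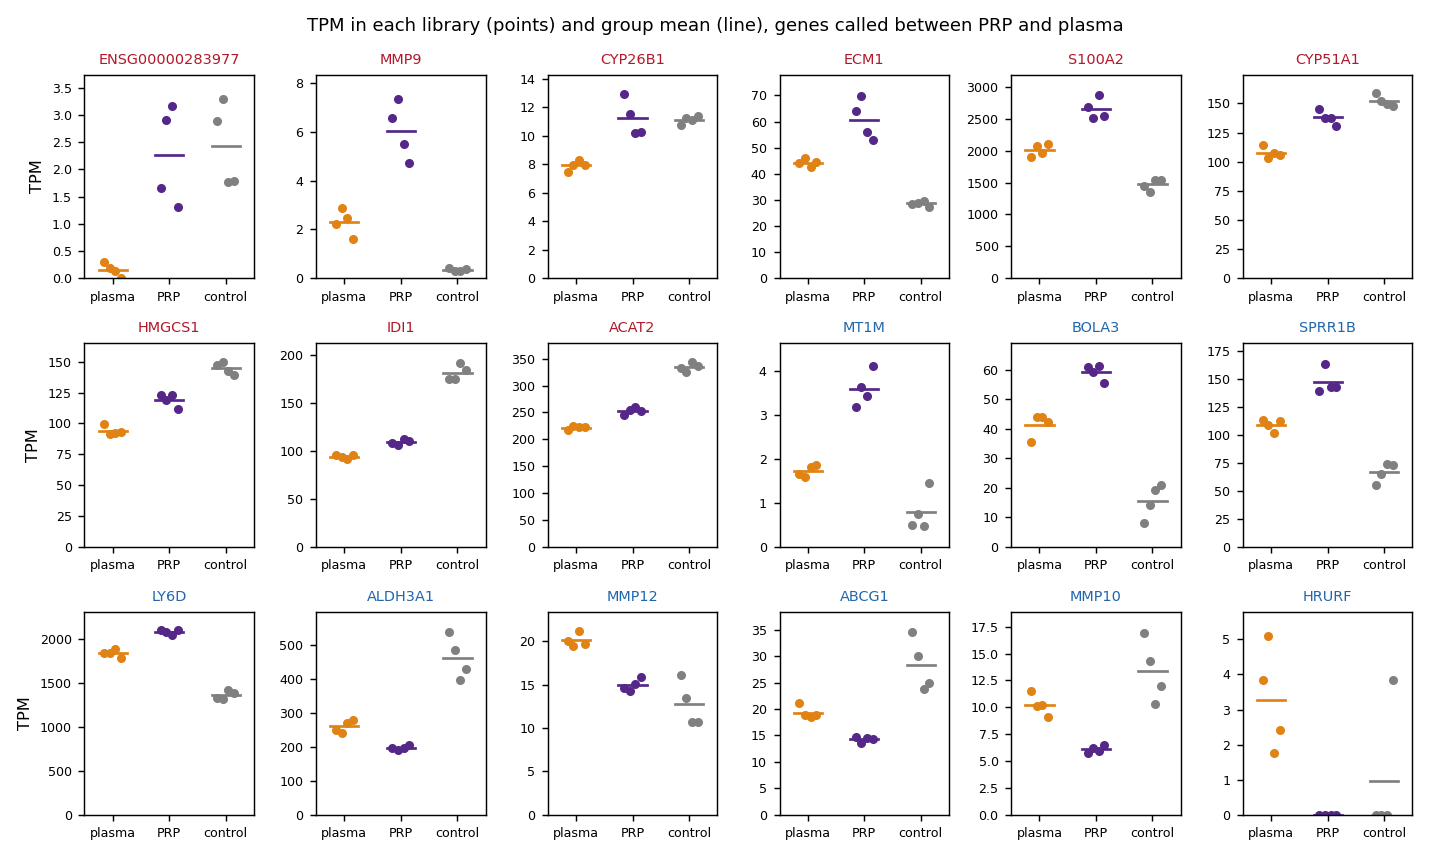
TPM in each library (points) with the group mean (line) for the 18 genes called in either fit, each panel on its own axis starting at 0. Red names were called in the fit of 12 libraries and blue names only in the fit of 8. In every panel the 4 PRP points lie wholly above or wholly below the 4 plasma points, and the control points show where untreated cells stood.

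Enzymes of cholesterol synthesis had mostly positive differences, with the highest median difference of all lists with more than 1 gene tested. Of 24 genes, all tested, 4 rose and 0 fell, 22 differences were positive, and in 12 (50%, against 2.67% of all genes) every PRP value lay above every plasma value. The list's median difference was 0.17, and it was 0.17 over the libraries numbered 1 and 2 and 0.20 over those numbered 3 and 4. The same list was already known to respond in these samples, so its direction is a description of them and not independent evidence.

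HMGCS1, which condenses acetyl groups into HMG-CoA (chromosome 5, 43287470 to 43313412, GRCh38), stood at 99.5, 91.1, 92.4 and 93.1 TPM with plasma and at 123, 119, 123 and 112 TPM with PRP. The groups did not overlap, and both lay below the untreated cells, at 145 ± 4.83 TPM. The PRP level was 1.27-fold the plasma level, a difference of 0.34 ± 0.04 (SE, limma adjusted p = 0.00509). CYP51A1, which removes a methyl group from lanosterol (chromosome 7, 92112153 to 92134803), stood at 114, 103, 108 and 105 TPM with plasma and at 145, 138, 138 and 131 TPM with PRP. Its difference was 0.36 ± 0.04 (1.28-fold, adjusted p = 0.00509), and the untreated level of 152 TPM was again above both. These 2 genes were called in 29 and 30 of the 32 alternative analyses. HMGCS1 was lost where the untreated libraries and PRP replicate 1, 2 or 3 were left out, and CYP51A1 where they and PRP replicate 2 or 3 were, at adjusted p up to 0.0562.

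ACAT2, which joins acetyl-CoA units at the head of the pathway, had 217 to 225 TPM with plasma and 245 to 260 TPM with PRP (difference 0.19 ± 0.03, adjusted p = 0.0325). IDI1, which isomerises the isoprenoid building block, had 92.0 to 95.5 TPM with plasma and 106 to 112 TPM with PRP (0.21 ± 0.04, adjusted p = 0.0498). Neither pair of groups overlapped, and untreated cells were higher still, at 335 and 182 TPM. Both calls were marginal: ACAT2 passed in 12 of 32 alternatives and IDI1 in 6, with adjusted p up to 0.169 and 0.221. All 4 genes overlap annotated genes on the opposite strand (TCP1 and SOD2 at ACAT2, antisense RNAs at HMGCS1, CYP51A1 and IDI1), as do MMP9 and MMP10 described after them. CYP51A1 also overlaps 2 protein-coding models on its own strand, which counting by strand could not separate. The sources used here do not state whether reads were counted by strand.

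Further genes of the pathway had similar differences without passing the threshold. MVD, which makes isopentenyl diphosphate, had 158 ± 11.2 TPM with plasma and 194 ± 10.5 TPM with PRP (0.30, adjusted p = 0.0609), and FDFT1, the squalene synthase, 195 ± 8.44 and 226 ± 8.13 TPM (0.21, adjusted p = 0.0609). SQLE, which oxidises squalene, and MSMO1, a sterol demethylase, had differences of 0.21 and 0.23 (adjusted p = 0.0747 each). The exceptions in sign were PMVK at -0.01 and FAXDC2 at -0.23. Every interval of the 24 lay within 1.5-fold.

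**Figure D3:**
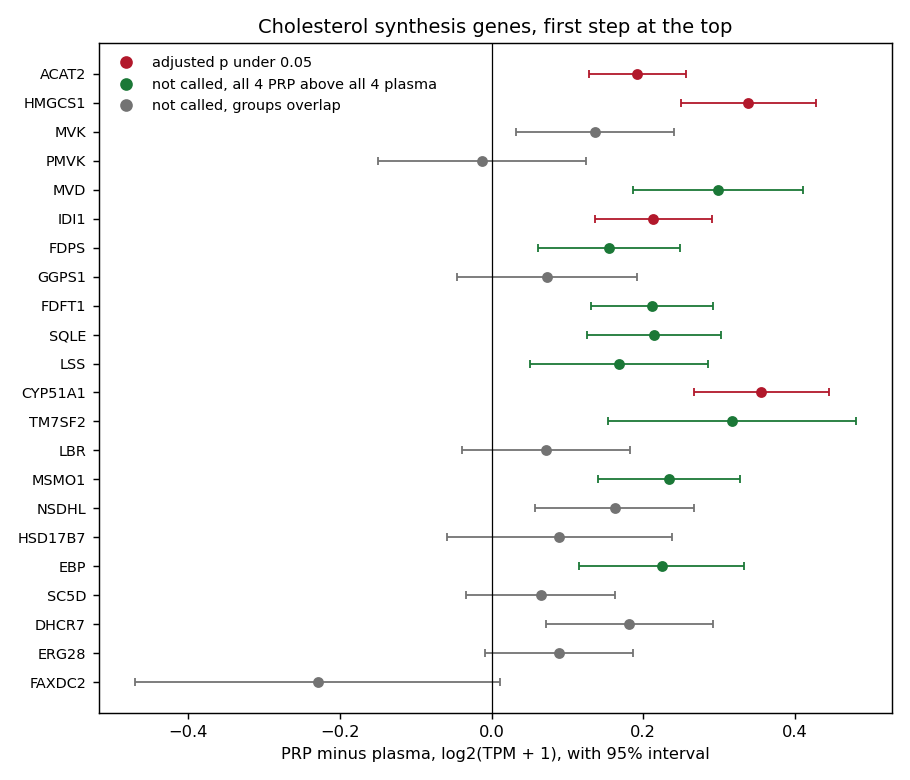
PRP minus plasma difference in log2(TPM + 1) with its 95% interval for 22 of the 24 cholesterol synthesis genes, from the first enzyme at the top to the last steps at the bottom. Red points passed the adjusted threshold, green points did not pass but had all 4 PRP values above all 4 plasma values, and grey points had overlapping groups. Points to the right of 0 stand for 20 of the 22 genes drawn.

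Promoters of 3 genes with all PRP values above all plasma values are shown, of which HMGCS1 was called and MVD and MSMO1 were not. The sequences come from the RefSeq promoter table for GRCh38, which held 19 of the 24 genes, and run 5′ to 3′ on the gene's strand up to where annotated transcripts begin. Capitals mark CCAAT or its complement ATTGG, the box bound by NF-Y, a factor known to work beside SREBP. They cover chr5:43313513-43313662 (minus strand), chr16:88663162-88663341 (minus strand) and chr4:165327419-165327622 (plus strand).
HMGCS1: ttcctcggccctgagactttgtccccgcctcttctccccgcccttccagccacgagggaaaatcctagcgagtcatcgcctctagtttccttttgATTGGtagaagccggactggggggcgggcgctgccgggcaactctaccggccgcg
MVD: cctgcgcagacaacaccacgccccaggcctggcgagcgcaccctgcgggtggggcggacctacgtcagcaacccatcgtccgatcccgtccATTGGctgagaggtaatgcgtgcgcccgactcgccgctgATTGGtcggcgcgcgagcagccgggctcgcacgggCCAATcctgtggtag
MSMO1: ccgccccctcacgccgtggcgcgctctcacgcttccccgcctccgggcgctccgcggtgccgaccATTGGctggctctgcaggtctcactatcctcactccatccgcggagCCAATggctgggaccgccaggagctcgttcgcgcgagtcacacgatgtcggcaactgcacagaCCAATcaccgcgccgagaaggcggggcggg
CCAAT stood on either strand within 250 bases before the start in 13 of the 19 promoters (68.4%), against 35.2% of the 9962 promoters of tested genes in the table. The sterol response element TCACNCCAC was found in 0 of the 19 in that window, against 0.883%, which says only that these letters were not there. A match is a description of the sequence, and no binding was measured.

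Regulators of sterol balance showed smaller differences, with 0 of 19 genes called, 14 positive and a median of 0.05. Only 0.0731% of all genes tested were called, so 0 calls in this list or in a later one says little about that list. INSIG1, which holds SREBP in the endoplasmic reticulum and is itself an SREBP target, had 102 to 120 TPM with plasma and 124 to 136 TPM with PRP (0.18, adjusted p = 0.263). STARD4, a sterol carrier, had 52.8 to 54.9 TPM with plasma and 56.9 to 61.0 TPM with PRP (0.14, adjusted p = 0.256). For these 2 genes (10.5% of the list, against 2.67% of all genes) the groups did not overlap. SREBF1, which encodes the factor for fatty acid genes, went the other way, at 221 ± 24.6 TPM with plasma and 196 ± 18.3 TPM with PRP (-0.17, adjusted p = 0.579).

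Targets of LXR, the nuclear receptor that senses oxysterols and promotes cholesterol export, had 0 of 10 genes called. Their differences were negative in 7, with a median of -0.08. ABCG1, a cholesterol exporter, stood at 21.1, 18.8, 18.4 and 18.8 TPM with plasma and at 14.7, 13.6, 14.5 and 14.4 TPM with PRP. The groups lay apart (-0.40 ± 0.09), and the gene passed in the fit of 8 libraries (adjusted p = 0.0252) but not in the fit of 12 (0.209), where the untreated libraries ranged from 23.7 to 34.5 TPM. ABCA1 had a difference of -0.35 with overlapping groups (adjusted p = 0.547), and MYLIP, a ubiquitin ligase, -0.20 without overlap (adjusted p = 0.385). In fatty acid synthesis 0 of 20 genes were called and 15 differences were positive, with a median of 0.10. ACSS2, which makes acetyl-CoA from acetate, had 68.1 to 75.4 TPM with plasma and 76.6 to 92.6 TPM with PRP (0.26, adjusted p = 0.169). It passed in 2 of 32 alternatives, both with estimated reads in place of TPM, and the desaturase FADS2 passed in the same 2.

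Matrix metalloproteases, which cut extracellular matrix and are known in invasion of this tumour type, differed in opposite directions. MMP9, a gelatinase (chromosome 20, 46008908 to 46016561), stood at 2.24, 2.86, 2.46 and 1.60 TPM with plasma and at 6.57, 7.37, 5.52 and 4.72 TPM with PRP, from 93 to 144 and 278 to 415 reads. Every PRP library was above every plasma library, and untreated cells had 0.285 to 0.427 TPM. The PRP mean was 2.64-fold the plasma mean, a difference of 1.10 ± 0.14 (adjusted p = 0.00509), and it was called in 27 of 31 alternatives. It was lost without the 3 libraries numbered 1 (adjusted p = 0.0991) and without the controls and PRP replicate 1, 2 or 3.

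MMP10, a stromelysin (chromosome 11, 102770502 to 102780628), stood at 11.5, 10.1, 10.3 and 9.09 TPM with plasma and at 5.76, 6.25, 5.94 and 6.48 TPM with PRP. The groups lay apart at 0.596 times the plasma mean (-0.66 ± 0.12), with untreated cells at 10.3 to 16.9 TPM. It passed in the fit of 8 libraries (adjusted p = 0.0114) and missed in the fit of 12 (0.0615). MMP12, the macrophage elastase, had 19.5 to 21.2 TPM with plasma and 14.2 to 15.9 TPM with PRP (-0.40 ± 0.10, adjusted p = 0.0165 in the fit of 8 and 0.259 in the fit of 12). MMP1, an interstitial collagenase, had 13.7 to 15.3 and 11.3 to 12.1 TPM, also apart (-0.29, adjusted p = 0.656). In these 3 genes the plasma values were the higher ones in every library. MMP1, MMP10 and MMP12 lie in 1 cluster on chromosome 11, with MMP3 at -0.25 and MMP13 at -0.27, whose groups overlapped. For MMP13 plasma libraries 1 and 2 had 36.0 and 35.9 TPM and libraries 3 and 4 had 26.7 and 28.1. The PRP libraries had 25.2 to 27.1 TPM, so the higher plasma libraries set that difference. MMP7, another member tested, also overlapped, at 6.78 to 9.71 TPM with plasma and 6.75 to 7.59 TPM with PRP.

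Over the list of proteases and their inhibitors 1 of 35 genes was called, 16 differences were positive, 4 genes lay wholly higher (11.4%, against 2.67% of all genes) and 3 wholly lower (8.57%, against 2.58%) with PRP, and the median was -0.03. The other genes wholly higher were MMP28, SERPINB2, an inhibitor of plasminogen activators, and TIMP3, with differences of 0.26, 0.30 and 0.27 and no call. TIMP1, an inhibitor of MMP9, had 226 to 238 TPM with plasma and 235 to 254 TPM with PRP (0.09, adjusted p = 0.723). PLAU, the urokinase that activates plasminogen, had a difference of 0.05 with an interval from -0.09 to 0.18, and MMP14, the main membrane-bound member, -0.04.

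**Figure D4:**
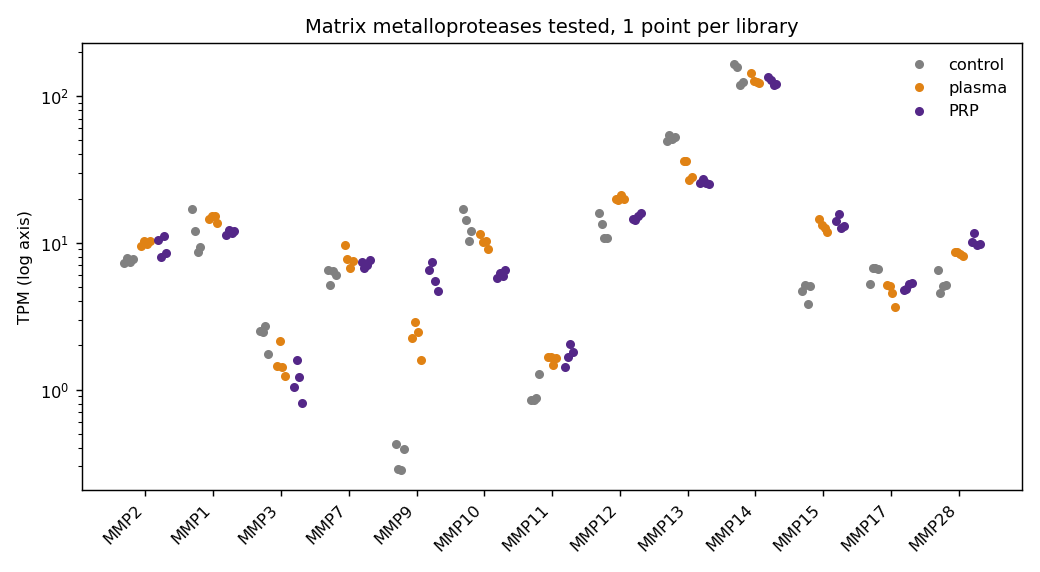
TPM on a log axis of the 13 matrix metalloproteases tested, 1 point per library, with untreated control in grey, plasma in orange and PRP in purple. MMP9 steps up from control to plasma to PRP. MMP1, MMP10 and MMP12 lie wholly lower and MMP28 wholly higher with PRP than with plasma, and the plasma and PRP points of the other members overlap. Control points lie apart from both treated groups for some members, such as MMP15.

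S100A2, a calcium-binding protein of squamous epithelium (chromosome 1, 153561108 to 153565844), stood at 1895, 2070, 1966 and 2112 TPM with plasma and at 2685, 2520, 2875 and 2542 TPM with PRP. The groups lay apart (1.32-fold, 0.40 ± 0.05, adjusted p = 0.00861), and untreated cells were below both, at 1470 ± 91.2 TPM. It passed in 29 of 32 alternatives and was lost without the 3 libraries numbered 1 (adjusted p = 0.14), with no filter (0.0605) and without the controls and PRP replicate 3 (0.0501). No other of the 14 S100 genes tested was called. The list's median was 0.005, and S100A10 and S100A6, other abundant members, differed by 0.06 each.

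ECM1, a secreted matrix glycoprotein (chromosome 1, 150508109 to 150513789), stood at 44.2, 46.0, 42.7 and 44.4 TPM with plasma and at 63.9, 69.96, 55.9 and 53.0 TPM with PRP. The lowest PRP library was above the highest plasma library, and untreated cells had 28.6 TPM. The difference was 0.44 ± 0.07 (1.37-fold, adjusted p = 0.0426), called in 13 of 32 alternatives and missed in the fit of 8 libraries (adjusted p = 0.082). It was the 1 called gene among 34 matrix and adhesion genes, whose median was 0.02.

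SPRR1B, a precursor of the cornified envelope, had 102 to 113 TPM with plasma and 139 to 163 TPM with PRP (0.43 ± 0.08, adjusted p = 0.0747, and 0.0114 in the fit of 8 libraries). LY6D, a surface protein of squamous cells, had 1779 to 1875 and 2036 to 2096 TPM (0.18 ± 0.03, adjusted p = 0.0592 and 0.0381). Other cornification genes had wide differences at low levels without a call in either fit, such as SBSN at 0.73 and SPRR2D at 0.70. SBSN passed in 1 of 31 alternatives and SPRR2D in 2 of 32. Some other members were lower with PRP. SPRR2A had 6.54 to 9.55 TPM with plasma and 4.99 to 7.91 TPM with PRP, with overlapping groups. CNFN had 9.31 to 10.9 TPM with plasma and 7.13 to 9.16 TPM with PRP, wholly lower. Over 33 differentiation genes the median was -0.02, with 15 positive. Of them 4 were wholly higher (12.1%, against 2.67% of all genes) and 2 wholly lower (6.06%, against 2.58%). KRT17, a stress keratin, was among the latter, at 1793 ± 31.3 TPM with plasma and 1647 ± 28.3 TPM with PRP (-0.12, adjusted p = 0.422), and KRT13 differed by -0.04.

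Promoters of S100A2, ECM1 and MMP10 are printed as 2 genes higher and 1 lower with PRP whose windows hold the letters TGANTCA. This pattern is looser than the AP-1 site of FOS and JUN factors, TGAGTCA or TGACTCA. The match in MMP10 and the first in ECM1 read TGAATCA, outside that site. Capitals mark TGANTCA and, in MMP10, CCAAT. The windows are chr1:153565866-153566094 (minus strand), chr1:150507859-150508061 (plus strand) and chr11:102780629-102780878 (minus strand), from the same table.
S100A2: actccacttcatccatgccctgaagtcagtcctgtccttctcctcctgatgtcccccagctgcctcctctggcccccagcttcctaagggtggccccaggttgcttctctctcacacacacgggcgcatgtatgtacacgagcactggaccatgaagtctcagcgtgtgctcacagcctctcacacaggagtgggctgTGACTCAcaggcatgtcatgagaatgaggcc
ECM1: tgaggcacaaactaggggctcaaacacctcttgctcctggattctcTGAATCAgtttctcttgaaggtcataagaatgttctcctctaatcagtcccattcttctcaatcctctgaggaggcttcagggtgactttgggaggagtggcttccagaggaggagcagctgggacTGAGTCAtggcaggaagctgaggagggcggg
MMP10: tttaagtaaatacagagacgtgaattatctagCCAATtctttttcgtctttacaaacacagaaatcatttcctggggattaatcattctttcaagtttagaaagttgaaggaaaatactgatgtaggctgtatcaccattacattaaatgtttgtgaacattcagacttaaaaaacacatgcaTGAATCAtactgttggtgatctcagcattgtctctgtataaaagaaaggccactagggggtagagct
TGANTCA is its own complement apart from the N, so both strands were covered at once. It stood in 3.95% of the promoters of tested genes and in 1 of the 19 cholesterol promoters. These 3 genes were chosen after their sequences were seen, and no binding was measured.

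Genes of retinoid and xenobiotic metabolism followed. CYP26B1, which breaks down retinoic acid (chromosome 2, 72129238 to 72147862), stood at 7.46, 7.95, 8.31 and 7.97 TPM with plasma and at 12.9, 11.5, 10.2 and 10.2 TPM with PRP (0.45 ± 0.07, adjusted p = 0.0426). The groups lay apart in TPM but not in reads, with 522 to 592 reads in plasma and 564 to 676 in PRP libraries. Its estimated effective transcript length was shorter with PRP, by 0.35 on the log2 scale, and with reads in place of TPM the difference was 0.15 (adjusted p = 0.567). The gene was called in 8 of 32 alternatives. Its relative CYP26A1 had 25.1 to 27.9 TPM with plasma and 23.7 to 29.4 TPM with PRP (-0.08, adjusted p = 0.918). Of 18 retinoid targets 1 was called and 10 differences were positive.

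ALDH3A1, an aldehyde dehydrogenase and target of the aryl hydrocarbon receptor (AHR), stood at 250, 240.5, 271 and 280 TPM with plasma and at 197, 190, 197 and 205 TPM with PRP. The groups lay apart (-0.40 ± 0.08), with untreated cells at 397 to 536 TPM, and the gene passed in the fit of 8 libraries (adjusted p = 0.0114) but not in the fit of 12 (0.0747). CYP1A1, the classical AHR target, had 45.9 to 51.1 and 41.7 to 45.2 TPM, apart as well (-0.19, adjusted p = 0.623). Of 10 AHR targets 0 were called in the fit of 12 and 8 differences were negative, with a median of -0.10.

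Some called transcripts rest on few or ambiguous reads. ENSG00000283977, annotated by GENCODE as a readthrough across TIMM10B and DNHD1 (chromosome 11, 6481485 to 6508978), had 0 to 2.7 reads in plasma and 12.0 to 28.5 in PRP libraries, with 15.7 to 27.9 in untreated ones. HRURF, an upstream reading frame that overlaps the gene HR, had 14.4 to 35.6 reads in plasma and 0 in every PRP library, but also 0 in 3 of 4 untreated libraries. Reads of overlapping transcripts can be shared out differently by the quantification, so both were treated as uncertain, and no fold is given. MT1M, a metallothionein with near-identical relatives, had 6 to 8 reads in plasma and 12 to 18 in PRP libraries. BOLA3, which helps assemble mitochondrial iron-sulphur proteins, was better covered, with 274 to 345 and 413 to 473 reads. It stood at 35.6, 43.8, 44.0 and 42.2 TPM with plasma and at 61.0, 59.4, 61.3 and 55.5 TPM with PRP. BOLA3 passed in the fit of 8 libraries but not in the fit of 12 (0.51, adjusted p = 0.0126 against 0.501), and in 8 of 32 alternatives.

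Receptors and target genes of platelet growth factors were examined next. Of 21 receptor genes for these factors 13 were tested, 0 were called and 0 lay apart between groups, and the median was 0.01. TGFBR2 had 44.9 to 48.0 TPM with plasma and 42.2 to 45.4 TPM with PRP (-0.09, adjusted p = 0.602), and EGFR, despite its wide spread, differed by 0.03 with an interval from -0.38 to 0.43. Receptors for other platelet mediators, such as lysophosphatidic acid, sphingosine phosphate and thrombin, had 0 of 22 genes called and a median of 0.03. LPAR1 differed by 0.06, S1PR2 by -0.05 and F2R, the thrombin receptor, by -0.03.

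TGF-beta targets had 0 of 33 called, 22 negative, 3 wholly lower (9.09%, against 2.58% of all genes) and a median of -0.02. TGFBI differed by -0.01 with an interval from -0.11 to 0.09. CCN2, a target of both SMAD and YAP, was wholly lower, at 18.3 to 19.7 and 15.4 to 16.6 TPM (-0.21, adjusted p = 0.697), as were ID3 (-0.13) and ACTA2 (-0.27). Among 29 SRF and YAP targets 0 were called and the median was 0.01. FHL2 and TPM2 were wholly higher at 0.13 and 0.10 (6.90% of the list, against 2.67% of all genes). CCN2 and ACTA2, which both lists hold, were wholly lower (6.90%, against 2.58%).

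Early genes and feedback inhibitors of ERK signalling had 0 of 29 called, 20 positive and a median of 0.09. DUSP6, which dephosphorylates ERK, had 8.47 to 10.2 TPM with plasma and 10.7 to 13.4 TPM with PRP, apart but not called (0.36, adjusted p = 0.326). EGR1 differed by 0.01 with an interval from -0.17 to 0.20, and FOSL1 by 0.09. A partial epithelial-mesenchymal programme, known in oral carcinoma at the invasive edge, had 0 of 48 genes called in the fit of 12 and a median of 0.04. In it VIM, the intermediate filament of mesenchymal cells, differed by 0.08 and CDH1 by -0.01.

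Inflammatory and interferon genes were mostly on the negative side without a call. Of 44 interferon-stimulated genes 42 differences were negative, with a median of -0.14. Wholly lower were 2 (GBP2 and IFITM2, 4.55%, against 2.58% of all genes), and 0 were called, the smallest adjusted p being 0.461. For IRF7, which amplifies the interferon response, plasma libraries 1 and 2 had 36.9 and 40.2 TPM and libraries 3 and 4 had 28.7 and 27.8, against 25.8 to 28.3 TPM over the PRP libraries. The groups overlapped, with the higher plasma libraries setting the difference (-0.26). Over the libraries numbered 1 and 2 the list had 42 negative differences and a median of -0.24, and over those numbered 3 and 4 it had 26 and a median of -0.01. Of 16 acute phase genes 13 were negative, with a median of -0.21 and 0 called. In 11 of them plasma libraries 1 and 2 were both above libraries 3 and 4, and the median was -0.39 over the libraries numbered 1 and 2 and -0.03 over those numbered 3 and 4. That order of the plasma libraries was not particular to these lists. It also held in 17 of 19 glycolysis genes and 29 of 34 matrix and adhesion genes, but in 2 of 18 retinoid targets and 0 of 55 ribosomal protein genes. Other lists lay between, such as cholesterol synthesis (12 of 24) and the partial epithelial-mesenchymal programme (27 of 48). The share over all genes tested was not computed, so these counts do not show whether the order is unusual in any list. LCN2, an iron-binding defence protein, had 128, 125, 96.4 and 90.9 TPM with plasma and 83.8 to 89.8 TPM with PRP (-0.31, adjusted p = 0.422), and CP, the copper carrier of plasma, -0.66 (adjusted p = 0.359). NF-kB targets had 20 of 27 negative and a median of -0.06 (-0.15 over the libraries numbered 1 and 2, 0.04 over those numbered 3 and 4), with CXCL8 at -0.11 and IL6 at -0.05. CD274, which encodes the checkpoint ligand PD-L1, differed by -0.06 with an interval from -0.24 to 0.12.

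Hypoxia and glycolysis genes had mostly positive differences without a call. Of 33 hypoxia genes 29 differences were positive, 5 wholly higher (15.2%, against 2.67% of all genes) and 0 called, with a median of 0.10. CA9, a carbonic anhydrase, had 2.58 to 3.53 TPM with plasma and 3.85 to 4.29 TPM with PRP (0.35, adjusted p = 0.422), against 0.704 in untreated cells. VEGFA differed by 0.16 with overlapping groups. Of 19 glycolysis genes 17 were positive and 5 wholly higher (26.3%), with a median of 0.07. ALDOC, an aldolase, had the smallest adjusted p, at 67.3 ± 3.95 and 80.3 ± 4.08 TPM (0.25, adjusted p = 0.0747). PFKM had the widest difference, at 21.4 to 24.2 TPM with plasma and 25.4 to 30.4 TPM with PRP (0.26). With estimated reads in place of TPM it shrank to 0.065. LDHA, which makes lactate and counts among the wholly higher genes of both lists, had 1127 to 1400 TPM with plasma and 1404 to 1430 TPM with PRP (0.17, adjusted p = 0.423).

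Cell cycle genes differed little. Of 35 mitosis genes 28 differences were positive and 5 wholly higher (14.3%, against 2.67% of all genes), with a median of 0.05, and of 40 DNA replication genes 31 were positive with a median of 0.04. PLK1, a mitotic kinase, had 106 to 119 TPM with plasma and 118 to 130 TPM with PRP (0.11, interval -0.04 to 0.27). BIRC5, which encodes survivin, had 158 to 165 and 167 to 187 TPM, apart but not called (0.11, adjusted p = 0.478). Every mitosis and replication gene tested had its interval within 1.5-fold.

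The remaining lists had 0 genes called. Medians were 0.05 over 31 ATF4 targets of the amino acid response, -0.003 over 23 NRF2 targets of oxidative stress, 0.08 over 13 steroid hormone targets, 0.02 over 14 coagulation genes and -0.03 over 55 ribosomal protein genes. Mitochondrially encoded genes had a median of -0.13 over 13 genes, with library values that differed several-fold within each group. MT-CO1 ran from 669 to 1952 TPM over the plasma libraries and from 625 to 1797 over the PRP libraries. Fibroblast markers had 4 of 11 genes tested (median -0.17) and endothelial markers 3 of 9 (median -0.04), none called. HBA1, the 1 erythroid marker tested, had 0 to 17.0 reads in plasma and 9 to 24.0 in PRP libraries, and its near-identical copy HBA2 had reads in the plasma libraries where HBA1 had 0.

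**Figure D5:**
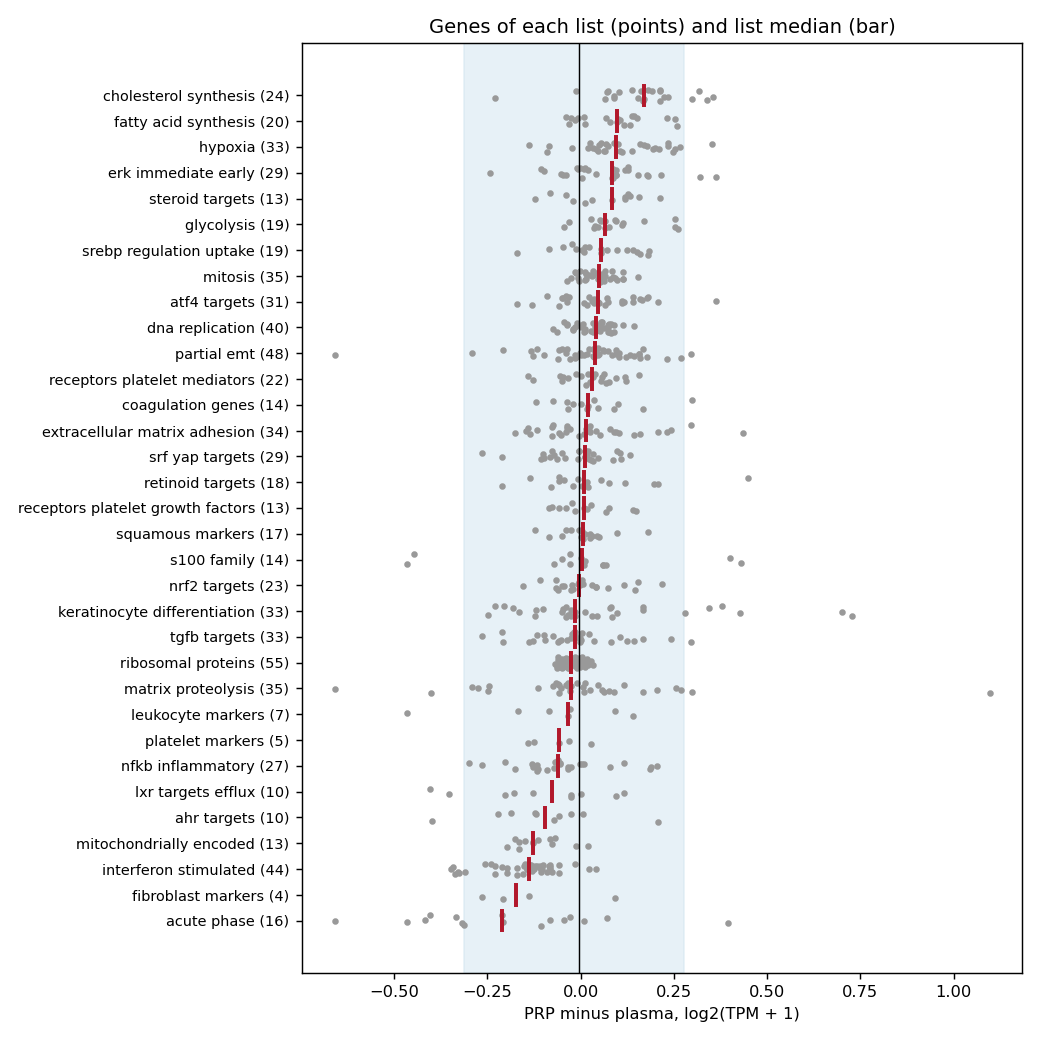
PRP minus plasma difference in log2(TPM + 1) for the genes of each list with at least 4 genes tested (points, number tested in brackets), with the list's median as a red bar. The vertical line is the median of all 12304 genes and the shaded band their 1st to 99th percentile, -0.31 to 0.28. Cholesterol synthesis has the highest median and acute phase the lowest. The band describes single genes and is no measure for a median.

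Among genes above 5 TPM whose groups lay apart, the widest differences outside these lists were mostly not called. The higher ones were GRIP1, a synaptic scaffold protein, at 0.82 (plasma 4.16 to 12.3 TPM, PRP 12.9 to 17.2), DYRK4, a protein kinase, at 0.52, PTGR3, a prostaglandin reductase, at 0.51, CPA4, a carboxypeptidase, at 0.50, and DBN1, the actin-binding protein drebrin, at 0.42. Their adjusted p ran from 0.256 to 0.558. The lower ones were CDK3, CCDC159, KLHL24, TRMT13, TMEM143 and EDN2, between -0.37 and -0.33 with adjusted p from 0.201 to 0.422. EDN2, the vasoconstrictor endothelin 2, had 13.3 to 15.3 TPM with plasma and 9.96 to 12.6 TPM with PRP. With estimated reads in place of TPM several of these differences shrank, to 0.31 for GRIP1, 0.28 for DYRK4, 0.17 for PTGR3, 0.31 for CPA4, -0.27 for CCDC159, -0.19 for KLHL24 and TMEM143 and -0.03 for TRMT13, whose estimated lengths differed between the groups. DBN1, CDK3 and EDN2 kept 0.36, -0.36 and -0.35.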

How the data were processed

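Polyadenylated RNA was sequenced from 12 libraries, 4 per group, grouped by the labels. The submitters' processing notes name Salmon and hg38, without versions. The transcript set that was quantified is not stated in the sources used here. Per the file headers, the deposited table of each library lists TPM, estimated counts of reads and effective lengths for 20375 genes, with decimal commas. TPM recomputed from the deposited counts and lengths matched within 1% plus 0.01 TPM for all genes.

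The computed values were log2(TPM + 1), with a pseudocount of 1, tested with limma-trend (limma 3.58.1, R 4.3.3) over all 12 libraries (9 residual degrees of freedom), for genes with 1 TPM in 4 of the 8 plasma and PRP libraries, with a two-sided test and Benjamini-Hochberg adjustment at 0.05. Because count units could not be registered for decimal commas, reads were tested only by limma's voom, as an alternative. Other alternatives were the fit of 8 libraries, leaving out libraries, a replicate block, a pseudocount of 0.1, no filter or 5 TPM, median centring, quantile normalization and robust moderation. Scripts were tested on simulated data.

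Named genes were those called in either fit, the 10 widest differences each way with a symbol, a mean of at least 5 TPM and no overlap, up to 4 per list with the smallest p, and a set list of genes of interest. MVD, FDFT1, SQLE, PMVK, FAXDC2, MMP3, MMP7, MMP13, MMP14, MMP28, S100A6 and IFITM2 were named after their values were seen. So were SPRR2A, CNFN, PDGFRA, PDGFRB, KDR and FLT1. The comparison, the 35 gene lists and the named genes were chosen with earlier results of these data known. Some members of these lists enter the counts and medians but are not reported here by name.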

Additional observations from a re-analysis of the deposited data

Results flagged for a closer look

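In 23 of 350 sets of 4 libraries, each set being 1 measure in 1 group, a single library stood far from the other 3, where chance alone gives about 1 in 20, or 17.5. In depth, plasma replicate 2 had 36258955 estimated reads and PRP replicate 1 had 36943548, against 41752302 or more in the other plasma and 41872643 or more in the other PRP libraries.

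Plasma replicate 1 stood above the rest of its group for the cholesterol exporter ABCG1 (21.1 TPM, the others 18.4 to 18.8), the desaturase FADS2 (28.6, others up to 23.8), the ERK phosphatase DUSP6 (10.2, others up to 8.73), the interferon target GBP2 (26.5, others up to 23.9) and VWF (8.99, others up to 7.71). Plasma replicate 2 was high for TRMT13 at 15.2 TPM and low for TPM1 at 334. Plasma replicate 3 was high for ID3 at 154.0 TPM and low for IFIT5 at 26.1, and plasma replicate 4 was low for GNG11 at 7.82.

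PRP replicate 1 stood above its group for FADS1 at 67.7 TPM and TPM2 at 233. PRP replicate 2 was high for SPRR1B (163, others 139 to 143) and PGAM1 at 819, and low for IRF7 at 25.8. PRP replicate 3 was low for BNIP3 at 37.1 and high for CYP1A1 at 45.2. PRP replicate 4 was low for ALDH1A3 at 322, SPRR2D (6.40, others 9.94 to 10.2) and TNFRSF12A at 120.3, and high for KRT13 at 588. Of the genes called in either fit, ABCG1 and SPRR1B are in this set, and for both the library that stood apart made the difference between the groups wider.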

How the results depend on the processing

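The direction of all 18 genes called in either fit held in every alternative run, and the number called did not. In each of these genes the PRP values lay wholly above or wholly below the plasma values. Leaving out libraries could therefore not have reversed a direction, and such runs say nothing about its stability. Against 9 calls, all higher, the fit of 8 libraries called 16 with 5 lower, estimated reads with voom 14 with 1 lower, the same with 8 libraries 25 (19 higher, 6 lower), no filter 4, all higher, and the fit without the 3 libraries numbered 1 gave 2, both higher. Median centring called 1 lower and quantile normalization 2 lower. Leaving out 1 library in turn, from 12 or from the 8, gave 0 to 20 calls, with 0 to 12 higher and 0 to 9 lower. Analyses of voom on 8 libraries, of the block on 8 libraries and of 7 libraries were chosen after seeing the data. With a replicate block the fit of 12 called 17 genes (15 higher, 2 lower) and the fit of 8 also 17 (5 lower). Same-numbered plasma and PRP libraries correlated at 0.319, 0.0425, 0.0705 and 0.188 in their deviations from the group means. Plasma libraries 1 and 2 both matched PRP library 1 best, and plasma libraries 3 and 4 both matched PRP library 4. The numbers were not taken as pairs. These matches set libraries 1 and 2 apart from 3 and 4, an order for which the main fit has no term. The separation was not sharp. Disagreement in reads, as chi-square per degree of freedom, was 9.19 between plasma libraries 1 and 2 and 9.21 between 2 and 3. Between the PRP libraries of the same numbers it was 8.5 and 8.96. The cause of this order was not tested.

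Small differences changed sign. PMEPA1 went from -0.02 to 0.054 without the libraries numbered 1 and to 0.060 and 0.058 with voom on 12 and 8 libraries. Without the libraries numbered 1, CXCL1 was at 0.035 and IL6 at 0.064. Leaving out 1 library moved CLU from -0.11 to 0.0038, GNG11 from -0.012 to 0.046, FAP from -0.0018 to 0.15, CDH5 from -0.094 to 0.022, TGFBI from -0.034 to 0.012, PMEPA1 from -0.050 to 0.024, EGR1 from -0.033 to 0.062 and CXCL1 from -0.16 to 0.12. Ranges for IL6 were -0.14 to 0.066, for KRT13 -0.093 to 0.0012, for CDH1 -0.098 to 0.064, for EGFR -0.10 to 0.16, for LPAR1 -0.0062 to 0.12, for F2R -0.067 to 0.0042 and for PLAU -0.0023 to 0.10. Mitochondrial genes had the widest ranges, MT-CO1 from -0.43 to 0.16, MT-ND1 from -0.64 to 0.30 and MT-CYB from -0.57 to 0.27.

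Among lists, leaving out 1 library gave 9 to 16 positive differences for sterol regulation, 11 to 26 for matrix and adhesion, 3 to 9 for growth factor receptors (11 with no filter) and 7 to 14 for squamous markers (7 with quantile normalization, median -0.010 to 0.037). Negative differences ran from 13 to 24 for TGF-beta targets, 1 to 13 for mitochondrial genes and 2 to 5 for platelet markers (median -0.100 to 0.0038, and 0.0051 with no filter). They numbered 8 for acute phase genes at 5 TPM, 8 and 2 for leukocyte markers with no filter and at 5 TPM, and 7 for fibroblast markers with no filter. Within libraries of the same numbers, also chosen after seeing the data, the median was -0.19 for LXR targets and -0.0035 for DNA replication over those numbered 3 and 4, and for platelet markers -0.0048 over 1 and 2 and -0.16 over 3 and 4. For NF-kB targets it changed sign, from -0.15 over 1 and 2 to 0.04 over 3 and 4. The cause of these shifts was not tested beyond the number of genes that each filter keeps. Depth limits transcripts of few reads, such as MT1M and ENSG00000283977, more than the others named.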
